A study of Mus musculus with 9 samples.

Results

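An osteoclast dissolves bone mineral by pumping acid into a sealed space beneath the cell, and 7 genes for the ion transport and membrane traffic around that acid were followed here in cultured mouse BM macrophages. They were taken by gene symbol from the deposited table and make up 7 of its 13526 genes: Car2, Slc4a2, Slc9b2, Clcn7, Ostm1, Snx10 and Plekhm1. The symbols alone decided membership, but the set was drawn up with earlier results of these data known, and Car2, Slc4a2 and Ostm1 are also genes that the study picked out of these same libraries. The direction of the members is therefore not independent evidence. All 7 genes passed the filter on low values, which asked for a normalized value of at least 10 in at least 3 of 9 libraries. Car2 was under that value in all 3 control libraries and passed through the other 6, while the other members of the set were above it in every library.

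Bulk RNA-Seq had been run on BM macrophages of C57BL/6 mice aged 8 weeks. All cells had first been grown for 3 days in medium that held 10% serum and, at 10 ng/mL, M-CSF, the growth factor that keeps macrophages alive. The 9 libraries formed 3 groups of 3: control without any RANKL, RANKL alone for 48 hours, and RANKL together with rmCst6 over the same 48 hours. RANKL is the cytokine that turns macrophages into osteoclasts, and rmCst6 is recombinant mouse cystatin M/E, a secreted inhibitor of lysosomal cysteine proteases. The study's methods also name M-CSF beside RANKL over those 48 hours. The doses of both proteins in these cultures, the culture time of the control macrophages and whether replicates came from separate mice are not stated in the labels or the paper, so p-values may measure technical spread only. These were whole cultures, in which fewer osteoclasts and less RNA per osteoclast cannot be told apart. No culture was followed over time, so a fall with rmCst6 means lower values than in the RANKL libraries.

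In a resorbing osteoclast, carbonic anhydrase II makes protons and bicarbonate from carbon dioxide and water, a V-type ATPase moves the protons across the ruffled border, and a chloride/proton exchanger supplies the counter-current of charge. Bicarbonate leaves on the opposite side of the cell through an anion exchanger, and sorting proteins bring lysosomal membrane to the ruffled border. Loss of CA2, CLCN7, OSTM1, SNX10 or PLEKHM1 causes osteopetrosis in humans, in which bone is too dense because it is not resorbed, and loss of Slc4a2 does so in mice and cattle.

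The labelled cell types were checked against markers. The summed level of 10 osteoclast markers, on the linear scale of the deposited values, was 4760 to 4890 in control, 511000 to 664000 with RANKL and 10500 to 13800 with RANKL plus rmCst6, and Calcr, the calcitonin receptor, was listed at 0 in every control library. The sum of 12 macrophage markers was 1100000 to 1280000 in control, 484000 to 534000 with RANKL and 696000 to 746000 with rmCst6 added, with Lyz2 the most abundant. The sum of 12 neutrophil markers was 18500 to 25500, 6350 to 10500 and 51800 to 60200 in the same order. All 10 osteoclast markers rose with RANKL and all 10 were lower with rmCst6. Outside RANKL, Calcr and Oscar averaged under the filter value, at log2 means of 0 and 0.53 in control and 1.75 and 2.41 with rmCst6. They passed the filter through the RANKL libraries, so the direction of their calls was fixed in advance. Of the macrophage markers, 11 fell and 1 rose with RANKL, and 6 were higher and 2 lower with rmCst6. Of the neutrophil markers, 11 fell with RANKL and 11 were higher with rmCst6 than with RANKL. Beside these counts, 36.6% of all genes tested were called higher and 35.9% lower with RANKL. With rmCst6 against RANKL the shares were 34.8% higher and 38.0% lower. The part of these shifts in cell markers in the results on acid transport was not tested. Between replicates of a group the Pearson r across genes was 0.989 to 0.991, and between groups it was 0.859 to 0.903.

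Upstream sequence is shown for 3 members: Clcn7 and Ostm1, whose proteins work as a pair but whose transcripts differed in size of change, and Slc9b2, which had one of the largest rises. The longer runs are the 250 bases before the RefSeq transcript start on GRCm38.p6, plus strand, 5′ to 3′, in no exon of the gene itself. Capitals mark, in Clcn7, the NFAT core TGGAAA read on the reverse strand and the E-box CACGTG, the letters that Mitf and Tfe family factors are known to bind. A short run for Clcn7 holds the 30 bases around another E-box just past the start, in the first exon. The RefSeq start of Ostm1 lies 95094 bases inside the longer GENCODE span of the gene.
Clcn7, chr17:25133141-25133390: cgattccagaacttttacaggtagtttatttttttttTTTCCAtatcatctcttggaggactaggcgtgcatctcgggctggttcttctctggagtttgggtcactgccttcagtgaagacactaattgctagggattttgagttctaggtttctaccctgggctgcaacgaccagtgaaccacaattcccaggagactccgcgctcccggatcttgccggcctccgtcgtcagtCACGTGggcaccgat
Clcn7, chr17:25133386-25133415: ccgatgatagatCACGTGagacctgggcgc
Ostm1, chr10:42678666-42678915: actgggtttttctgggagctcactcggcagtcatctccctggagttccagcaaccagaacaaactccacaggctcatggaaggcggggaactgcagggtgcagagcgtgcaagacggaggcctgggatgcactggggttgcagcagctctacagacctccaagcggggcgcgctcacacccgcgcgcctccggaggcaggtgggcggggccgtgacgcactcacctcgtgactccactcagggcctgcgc
Slc9b2, chr3:135307450-135307699: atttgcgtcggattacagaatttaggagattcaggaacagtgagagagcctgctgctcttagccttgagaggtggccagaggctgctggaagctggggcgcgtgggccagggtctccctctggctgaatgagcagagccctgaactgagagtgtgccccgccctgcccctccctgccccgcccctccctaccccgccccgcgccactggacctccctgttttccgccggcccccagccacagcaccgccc

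Promoter windows of 300 bases, from 250 before to 50 after the start, were found for 6 members, 10 windows in all. They were searched on both strands for 6 motifs. The E-box CACGTG was in 1 of the 10 windows, that of Clcn7 shown above, and in 7.15% of the 32851 windows of all genes. Its first copy began 15 bases before the start and its second at position 8 after it, and 0.594% of all windows held at least 2 copies. The M-box TCATGTG, in 3.77% of all windows, was found only in the second window of Clcn7. AP-1 letters TGANTCA, in 7.81% of all windows, were in 1 window of Snx10. The PU box GAGGAA was in windows of Slc4a2 and Snx10, the NFAT core in windows of Clcn7 and Snx10, and the ISRE core in 1 window of Snx10, against 28.3%, 21.4% and 3.44% of all windows. None of the 6 motifs was found in the windows of Slc9b2, Ostm1 or Plekhm1. A match is a match of letters and not a measured binding site.

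All 7 genes rose with RANKL, by 1.23-fold for Plekhm1 up to 645-fold for Car2, where 36.6% of the 12932 genes tested were called higher by limma at a Benjamini-Hochberg adjusted p under 0.05 and 35.9% lower. With rmCst6 added to RANKL, 6 of the 7 were lower than with RANKL alone and Plekhm1 was not called, where 38.0% of all genes tested were called lower and 34.8% higher. Against control, the RANKL plus rmCst6 libraries had 5 of the 7 higher, Slc4a2 lower and Ostm1 not called, with 36.7% of all genes called higher and 35.1% lower. The members' median log2 fold changes in the 3 comparisons were 2.38, -1.96 and 0.41, and those of all genes tested were -0.01, -0.02 and 0.01. The libraries of the groups compared did not overlap for 7, 6 and 6 of the 7 genes in the same order. Over all genes tested, 37.8%, 36.4% and 38.7% were higher without overlap and 37.6%, 39.4% and 36.8% lower, and 72.5%, 72.7% and 71.7% were called in either direction. These comparisons share libraries pairwise, so they are not independent of each other.

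**Figure D1:**
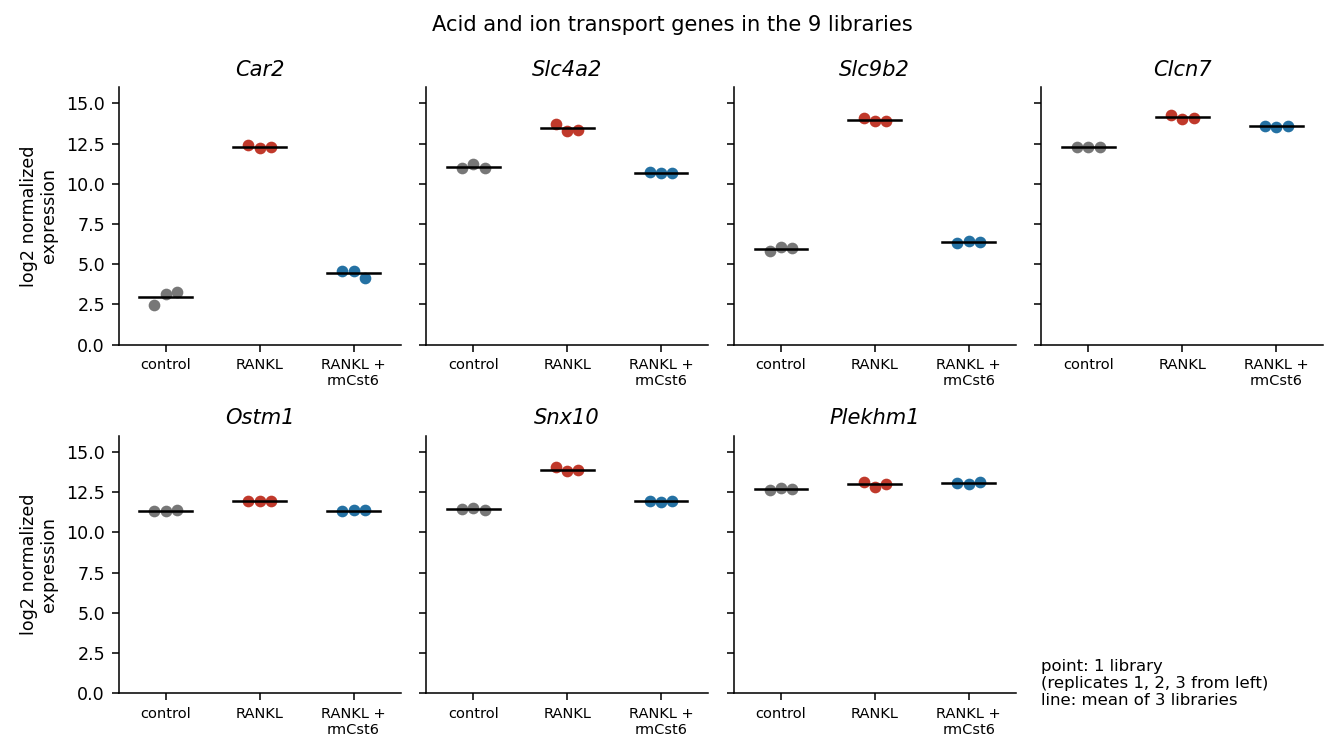
Log2 normalized expression (vertical axis) of each of the 7 genes in the 9 libraries, with 1 point for each library and a line at the mean of 3. Car2 and Slc9b2 sat high in the RANKL libraries alone, Clcn7 with rmCst6 lay closer to its RANKL level than to control, and Plekhm1 stayed between 12.66 and 13.14 in all 9 libraries.

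Cytosolic acid and bicarbonate supply came first in order of role. Car2, carbonic anhydrase II (ENSMUSG00000027562, chr3:14886273-14900770, plus strand, GRCm38), had log2 normalized values of 2.48, 3.17 and 3.30 in the control libraries, 12.44, 12.23 and 12.27 with RANKL, and 4.60, 4.59 and 4.14 with RANKL plus rmCst6. Car2 thus lay close to the floor of the table in control, high with RANKL and low with RANKL plus rmCst6. No library of any group overlapped those of another. The rise with RANKL was 9.33 ± 0.22 on the log2 scale (SE, limma, adjusted p = 3.94e-12), or 645-fold, rank 13 of 12932 from the top. With rmCst6 added, Car2 fell by 7.87 ± 0.22 (adjusted p = 6.39e-12, limma), a 234-fold difference and rank 15 from the bottom. The RANKL plus rmCst6 libraries were still 1.46 ± 0.22 above control (adjusted p = 6.23e-05, limma), which is 2.75-fold between values that are both small. These sizes depend on the small control values: with a further 8 added on the linear scale before taking logs, the log2 differences of Car2 were 8.31, -7.42 and 0.90 in the same order, all still called.

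Car2 is also abundant in red cell precursors, so erythroid markers were examined. Of 12 erythroid markers, 3 were in the table, and Alas2 and the beta globins were not among them. The summed level of those 3 was 61.7 to 86.8 in control, 12.3 to 21.6 with RANKL and 24.2 to 30.8 with rmCst6 added, lowest in the libraries where Car2 was highest.

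Slc4a2, the anion exchanger that trades bicarbonate for chloride (ENSMUSG00000028962, chr5:24423837-24440950, plus strand), measured 10.99, 11.22 and 10.99 in control, 13.72, 13.31 and 13.32 with RANKL, and 10.72, 10.67 and 10.68 with RANKL plus rmCst6 on the log2 scale. The RANKL libraries stood above all others, and the rmCst6 libraries fell just below the control ones with no overlap. The rise with RANKL was 2.38 ± 0.097 (SE, limma, adjusted p = 3.48e-10), or 5.20-fold. The drop with rmCst6 was the larger in size, -2.76 ± 0.097 (adjusted p = 5.83e-11, limma), or 6.75-fold. Of the 7 genes only Slc4a2 was called lower than control, at -0.38 ± 0.097 on the log2 scale (adjusted p = 0.00382, limma), and it stayed called there in all 19 alternatives, with values of -0.45 to -0.30. Fastk lies across part of the gene on the other strand, and the sources used here do not say whether quantification used strand.

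Slc9b2, a sodium-proton exchanger found in osteoclasts and also called NHA2 (ENSMUSG00000037994, chr3:135307700-135345387, plus strand), had log2 values of 5.82, 6.06 and 6.04 in control, 14.09, 13.88 and 13.87 with RANKL, and 6.34, 6.47 and 6.35 with RANKL plus rmCst6. The RANKL libraries stood far above the rest, and the rmCst6 libraries lay just over the control ones with no overlap. The rise was 7.97 ± 0.095 (SE, limma, adjusted p = 3.2e-14), or 251-fold, at rank 23 of all genes tested. The fall with rmCst6 was -7.56 ± 0.095 (adjusted p = 1.1e-14, limma), or 188-fold, at rank 22 from the bottom. What remained over control was 0.41 ± 0.095, or 1.33-fold (adjusted p = 0.00169, limma).

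The paralog Slc9b1 starts 2641 bases past the end of Slc9b2 on the same strand and was looked at after its values were seen. Its log2 values were 1.45, 0 and 0 in control, 5.78, 5.24 and 5.68 with RANKL and 0.59, 0.95 and 3.29 with rmCst6 added. Slc9b1 reached the filter through the RANKL libraries alone and was chosen for this pattern, so its log2 differences of 5.08 with RANKL and -3.96 with rmCst6 are a description with no test. Per kilobase of exon its RANKL libraries reached 9.99 to 14.6, where those of Slc9b2 were at 2730 to 3170.

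**Figure D2:**
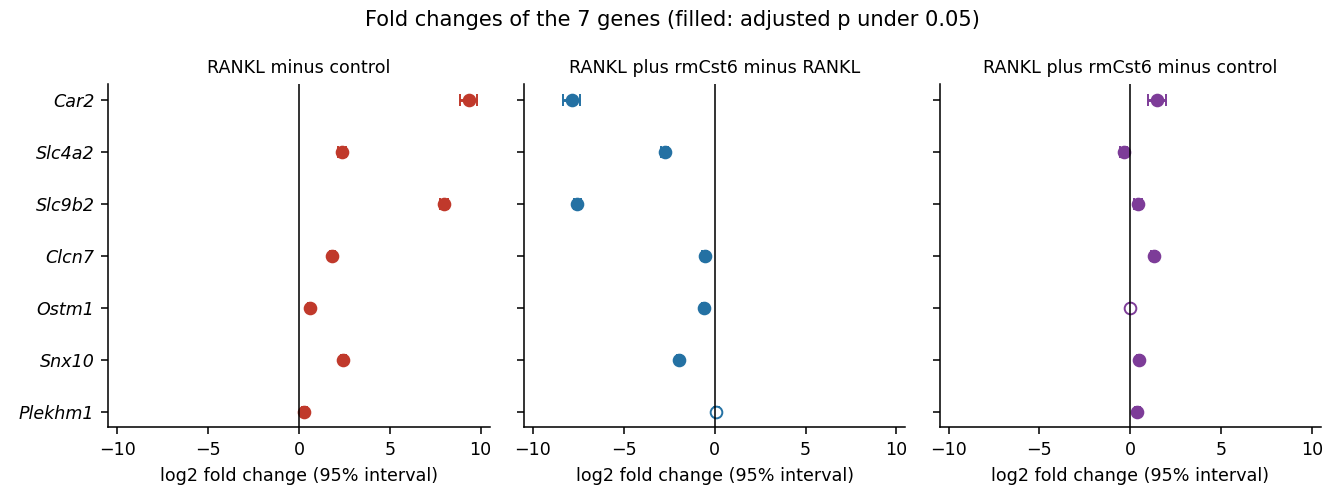
Log2 fold change of each of the 7 genes in the 3 comparisons, with 95% intervals from limma and filled points for an adjusted p under 0.05. Car2 and Slc9b2 moved by more than 7 in opposite directions in the first 2 panels, and the open points are Plekhm1 with rmCst6 against RANKL and Ostm1 with rmCst6 against control.

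Clcn7 is the chloride/proton exchanger of lysosomes and the ruffled border, and Ostm1 is the beta subunit that it needs for stability. Clcn7 (ENSMUSG00000036636, chr17:25133391-25162104, plus strand) measured 12.29, 12.29 and 12.30 in control, 14.29, 14.01 and 14.07 with RANKL, and 13.59, 13.53 and 13.62 with RANKL plus rmCst6 on the log2 scale. The 3 groups did not overlap, and the rmCst6 libraries lay closer to RANKL than to control. Clcn7 rose by 1.83 ± 0.062 with RANKL (SE, limma, adjusted p = 6.76e-11), or 3.56-fold. It fell by 0.55 ± 0.062 when rmCst6 was added (adjusted p = 4.58e-06, limma; 95% interval -0.68 to -0.41), or 1.46-fold. Against control Clcn7 was still 1.28 ± 0.062 higher in the rmCst6 libraries (adjusted p = 1.3e-09, limma), or 2.44-fold.

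Ostm1 (ENSMUSG00000038280, chr10:42583822-42702459, plus strand, crossed by the antisense gene model Gm15200) measured 11.35, 11.33 and 11.39 in control, 11.96, 11.96 and 11.94 with RANKL, and 11.35, 11.36 and 11.37 with RANKL plus rmCst6. Its RANKL libraries were above the rest, and the rmCst6 libraries lay inside the range of control. The rise was 0.60 ± 0.040 (SE, limma, adjusted p = 3.18e-08), or 1.52-fold, and the fall -0.60 ± 0.040 (adjusted p = 2.9e-08, limma), or 1.51-fold. Against control the difference with rmCst6 was 0.01 on the log2 scale (limma, adjusted p = 0.907), with a 95% interval of -0.08 to 0.09, and its sign changed under quantile normalization, median centring and without control replicate 2 (adjusted p 0.170 to 0.979 over 19 alternatives).

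The balance within the Clcn7 and Ostm1 pair was then taken within each library, a ratio chosen after the values were seen. Per kilobase of exon, Clcn7 over Ostm1 was 2.61, 2.67 and 2.56 in control, 6.83, 5.64 and 5.96 with RANKL, and 6.44, 6.11 and 6.48 with RANKL plus rmCst6. The ratio was higher than control in every RANKL library, and with rmCst6 its range lay within that of RANKL. The log2 difference was 1.23 for RANKL against control (exact permutation test, two-sided, p = 0.1, adjusted 0.12 over 6 comparisons), 0.05 for rmCst6 against RANKL (exact p = 0.6, adjusted 0.6) and 1.28 for rmCst6 against control (exact p = 0.1, adjusted 0.12). With 3 libraries against 3 this test cannot go below 0.1.

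Snx10 and Plekhm1 carry membrane to and from lysosomes and the ruffled border. Snx10, a sorting nexin that binds endosomal lipids (ENSMUSG00000038301, chr6:51523901-51590679, plus strand), measured 11.47, 11.52 and 11.41 in control, 14.04, 13.82 and 13.85 with RANKL, and 11.97, 11.89 and 11.97 with RANKL plus rmCst6 on the log2 scale. The RANKL libraries were far above both other groups, and the rmCst6 libraries all lay a little above control. The rise was 2.44 ± 0.059 (SE, limma, adjusted p = 4.38e-12), or 5.43-fold. With rmCst6 added, Snx10 fell by 1.96 ± 0.059 (adjusted p = 1.19e-11, limma), or 3.90-fold, leaving it 0.48 ± 0.059 over control (adjusted p = 1e-05, limma), or 1.39-fold.

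Plekhm1, a Rab7 effector that links late endosomes and lysosomes to the fusion machinery (ENSMUSG00000034247, chr11:103364275-103412687, minus strand, crossed by the antisense gene Arhgap27os1), measured 12.66, 12.73 and 12.68 in control, 13.14, 12.85 and 12.99 with RANKL, and 13.10, 13.02 and 13.12 with RANKL plus rmCst6. Both RANKL groups lay above control, and they overlapped each other. The rise with RANKL was 0.30 ± 0.064 (SE, limma, adjusted p = 0.000959), or 1.23-fold, and it was 0.19 under median centring (adjusted p = 0.0103, limma; 0.000108 to 0.0103 over 19 alternatives). Between RANKL plus rmCst6 and RANKL the difference was 0.09 (limma, adjusted p = 0.226), with a 95% interval of -0.05 to 0.23. Without RANKL replicate 1 it was 0.16 and was called higher (limma, adjusted p = 0.0170; 0.0170 to 0.942 over 19 alternatives). Against control Plekhm1 was higher with rmCst6 by 0.39 ± 0.064, or 1.31-fold (adjusted p = 0.000125, limma).

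Set against each other per kilobase of exon, a ratio also chosen after the values were seen, Snx10 over Plekhm1 was 0.280, 0.277 and 0.266 in control, 1.20, 1.26 and 1.17 with RANKL, and 0.293, 0.294 and 0.290 with RANKL plus rmCst6. By this measure Snx10 was well under Plekhm1 in control, above it with RANKL and well under it with RANKL plus rmCst6. Which gene lies above the other depends on the union exon lengths. These were 9.3 kb over 7 annotated transcripts for Snx10 and 5.97 kb over 2 for Plekhm1. The log2 differences were 2.14 for RANKL against control, -2.05 for rmCst6 against RANKL and 0.09 for rmCst6 against control, each with the smallest p the exact permutation test allows (two-sided p = 0.1, adjusted 0.12 over 6 comparisons).

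**Figure D3:**
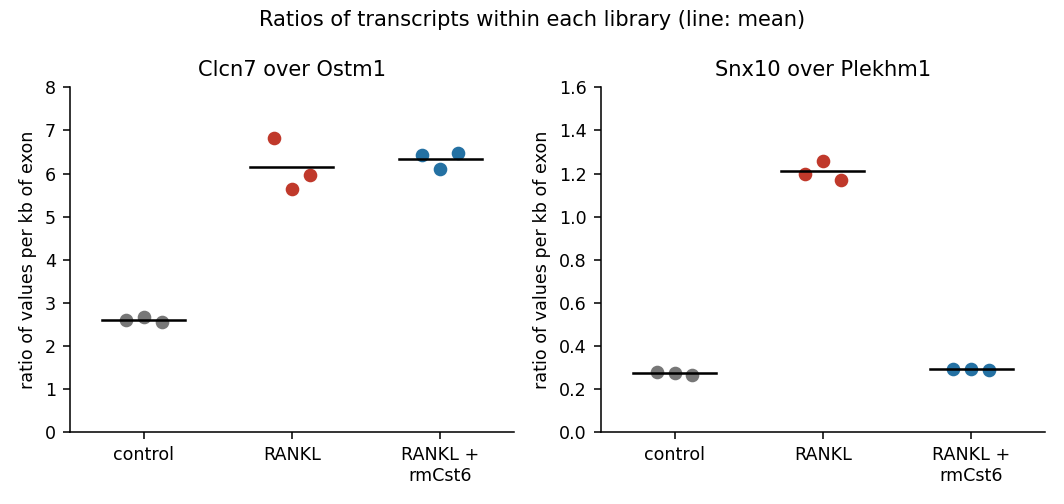
Ratio of values per kilobase of exon (vertical axes, from 0) within each of the 9 libraries for Clcn7 over Ostm1 and Snx10 over Plekhm1, with 1 point for each library and a line at the mean of 3. The first ratio averaged 2.61, 6.15 and 6.35 in control, RANKL and RANKL plus rmCst6, and the second averaged 0.275, 1.21 and 0.292.

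RANKL replicate 1 was the highest of the RANKL libraries for 6 of the 7 genes, and for Ostm1 it lay just under replicate 2. The summed osteoclast markers were also highest in that library, at 663900 against 511000 and 540600 in replicates 2 and 3. Apart from Plekhm1 with rmCst6, no call on the 7 genes depended on it.

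Levels between genes were compared per kilobase of exon, as the linear value over the union exon length of each gene. That length pools the exons of all annotated transcripts, from 2 for Plekhm1 to 15 for Slc4a2. Which transcripts were expressed was not measured, and every order between genes rests on these lengths. In control the order was Plekhm1 1110 ± 26.7 (SD, n = 3), Clcn7 948 ± 4.12, Ostm1 363 ± 8.13, Snx10 304 ± 10.8, Slc4a2 259 ± 24.1, Slc9b2 11.3 ± 1.0 and Car2 2.94 ± 0.934, and no neighbours in it overlapped in range. Both Plekhm1 and Clcn7 thus stood high in macrophages without RANKL, Plekhm1 at percentile 91.4 and Clcn7 at 89.9 of the 12923 tested genes with a length, while Slc9b2 and Car2 lay at percentiles 15.8 and 6.41. With RANKL the order became Clcn7 3390 ± 348 (SD, n = 3), Slc9b2 2880 ± 254, Car2 2110 ± 168, Snx10 1650 ± 142, Plekhm1 1370 ± 137, Slc4a2 1350 ± 228 and Ostm1 551 ± 4.61. There Clcn7 and Slc9b2 overlapped in range, as did Plekhm1 and Slc4a2, and Car2 had moved to percentile 95.7 and Slc9b2 to 96.8. With RANKL plus rmCst6 the order was Clcn7 2310 ± 72.8 (SD, n = 3), Plekhm1 1450 ± 54.2, Snx10 424 ± 13.5, Ostm1 364 ± 2.73, Slc4a2 199 ± 3.37, Slc9b2 15.1 ± 0.779 and Car2 8.66 ± 1.57, again with no overlap between neighbours. It differed from the order in control in the places of Clcn7 and Plekhm1 and of Snx10 and Ostm1, each of which had traded with its neighbour.

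**Figure D4:**
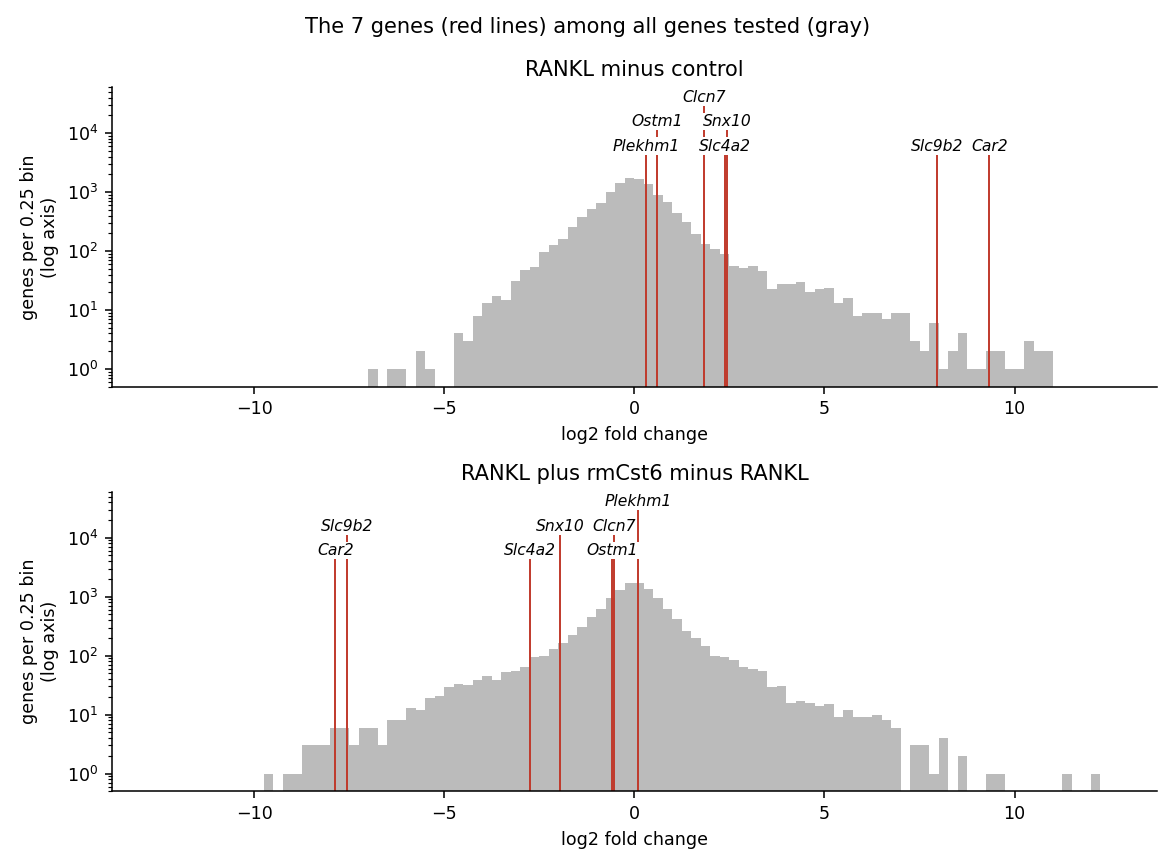
Number of the 12932 genes tested in each bin of log2 fold change (gray, log vertical axis), with the 7 genes as red lines, for RANKL against control and for RANKL plus rmCst6 against RANKL. Car2 and Slc9b2 lay in the thin tail of both panels. The 5th to 95th percentile of all genes ran from -1.69 to 2.13 (RANKL) and from -2.36 to 2.06 (rmCst6). Car2, Slc9b2 and Slc4a2 lay beyond that range in both panels and Snx10 with RANKL only. Clcn7, Ostm1 and Plekhm1 lay inside it in both.

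Relatives of the members were counted by family, followed by other lists of genes. Every such count stands beside the shares over all genes tested. With RANKL, 36.6% of all genes were called higher and 35.9% lower. With rmCst6 against RANKL, 34.8% were called higher and 38.0% lower. Of 6 carbonic anhydrases tested besides Car2, 2 rose and 1 fell with RANKL, and with rmCst6 against RANKL 2 were higher and 2 lower, around medians of 0.46 and 0.28 on the log2 scale. Car13, a cytosolic isozyme whose gene lies 223 kb from Car2 on chr3, took the opposite course to Car2 once rmCst6 was present. Its log2 values were 8.16, 8.16 and 8.37 in control, 9.69, 9.79 and 9.73 with RANKL and 11.46, 11.53 and 11.67 with RANKL plus rmCst6. Car13 rose by 1.50 ± 0.077 with RANKL (SE, limma, adjusted p = 2.71e-09) and was a further 1.82 ± 0.077 higher with rmCst6 (adjusted p = 3.23e-10, limma). Per kilobase it averaged 131, 370 and 1310, so that Car2 exceeded it in the RANKL libraries and it exceeded Car2 in the other 6. Mitochondrial Car5b was lower with rmCst6 (-1.07, adjusted p = 6.89e-06, limma), and the membrane enzyme Car9 was higher (0.47, adjusted p = 0.0118). Car11 was also called lower (-1.65, adjusted p = 0.00548, limma), but between log2 means of 2.71 with RANKL and 1.06 with rmCst6. Both means lie under the filter value, close to the floor of the table, and its mean in control was 3.73.

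Of 5 other CLC genes tested, none rose with RANKL and 2 fell, with a median of -0.18, and with rmCst6 1 was higher and 1 lower. Clcn4, an endosomal exchanger, fell by 0.75 on the log2 scale when rmCst6 was added to RANKL (limma, adjusted p = 6.64e-09), and Clcn6 was 0.25 higher (adjusted p = 0.0214). Clcn3 and Clcn5 were not called in that comparison, at -0.11 and -0.15. Clcn5 fell by 0.68 with RANKL (adjusted p = 1.37e-05, limma). No other CLC gene tested averaged more than 407 per kilobase in any group, against 948 or more for Clcn7.

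The 4 other Slc4 genes tested were all lower with rmCst6 than with RANKL, with a median of -1.43, beside 38.0% of all genes tested. Of the 4, 3 had risen with RANKL, beside 36.6% of all genes tested, and the median of all 4 was 2.08. Slc4a3, another anion exchanger, had log2 values of 3.47, 5.34 and 4.96 in control, 8.15, 7.79 and 7.83 with RANKL and 3.84, 2.62 and 2.58 with rmCst6 added. Its changes were 3.33 with RANKL (limma, adjusted p = 2.63e-05) and -4.91 with rmCst6 (adjusted p = 6.69e-07), larger on the log2 scale than those of Slc4a2, although per kilobase it reached only 28.3 with RANKL against 1350 for Slc4a2. Slc4a7, a sodium-bicarbonate cotransporter, rose by 0.82 with RANKL and fell by 0.50 with rmCst6 (adjusted p = 1.13e-06 and 9.43e-05, limma). Slc4a8 changed by 3.51 and -1.53 at low levels, and Slc4a11 by -1.20 with RANKL, which was not called, and -1.34 with rmCst6, which was. Slc4a11 averaged 3.11 with RANKL and 1.78 with rmCst6 on the log2 scale, both under the filter value and close to the floor.

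Among 8 sodium-proton exchangers tested besides Slc9b2, Slc9b1 included, 4 rose and 3 fell with RANKL, and 2 were higher and 4 lower with rmCst6. Slc9b1 is among those counted as risen and as lower. It passed the filter through the RANKL libraries alone, so its part in both counts was fixed in advance. Slc9a5 rose by 2.80 with RANKL and fell by 2.52 with rmCst6 (limma, adjusted p = 3.68e-08 and 8.77e-08). Slc9a9, an endosomal exchanger, fell by 2.49 with RANKL (adjusted p = 2.21e-11, limma) and was not called with rmCst6 against RANKL (0.08, adjusted p = 0.342). Slc9a8 was 0.65 higher with rmCst6 than with RANKL (adjusted p = 6.55e-07, limma).

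**Figure D5:**
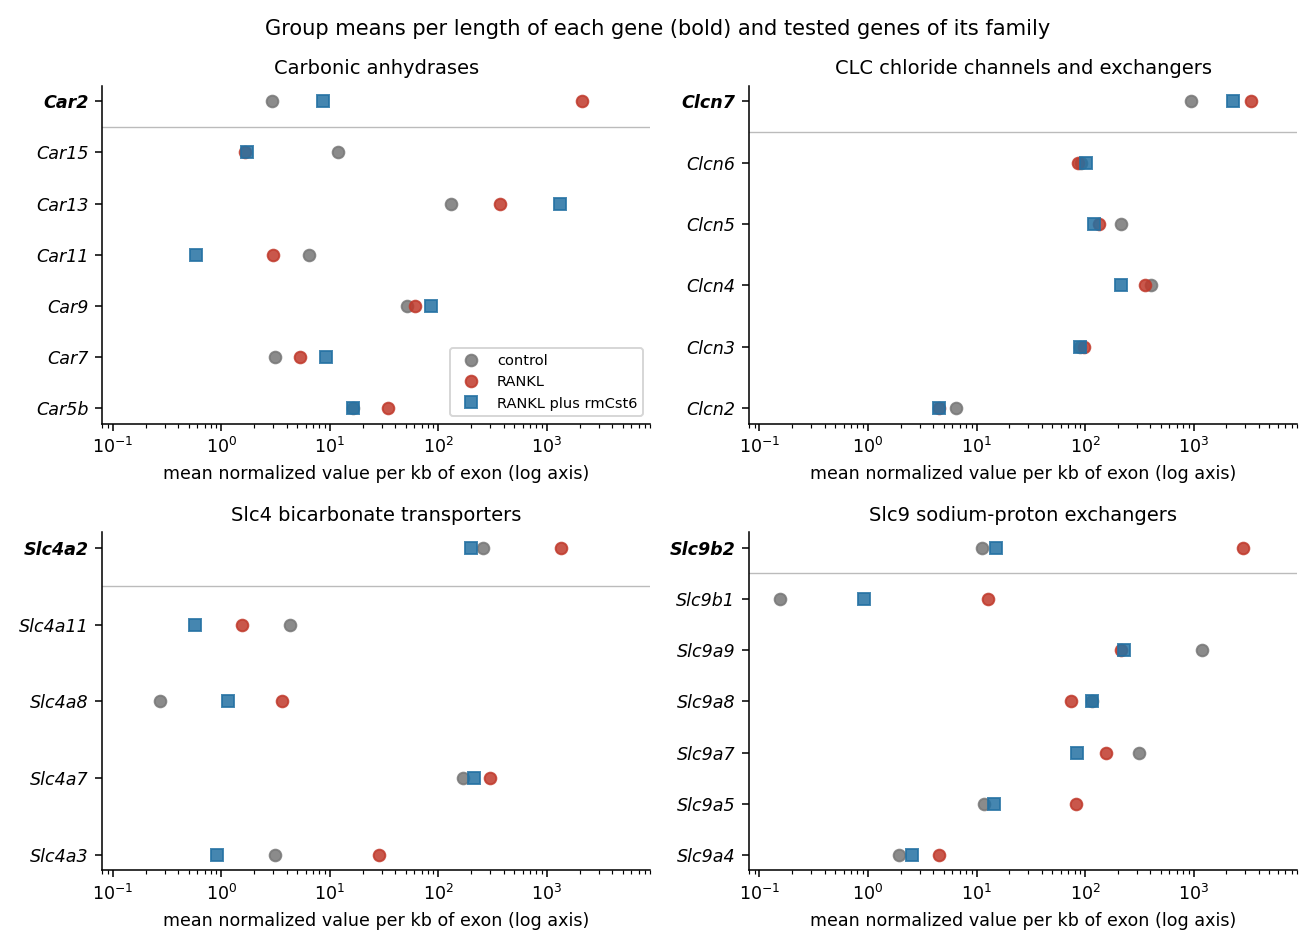
Group means of the normalized value per kilobase of exon (log horizontal axis) for Car2, Clcn7, Slc4a2 and Slc9b2, in bold, and tested genes of each family, in control, RANKL and RANKL plus rmCst6 libraries. Car13 was highest with RANKL plus rmCst6, at 1310, and Slc9b2 at 2880 with RANKL exceeded the tested sodium-proton exchangers drawn below it.

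More of the other sorting nexins fell than rose with RANKL, unlike Snx10. Of 27 tested, 4 rose and 14 fell with RANKL, and 15 were higher and 10 lower with rmCst6, with medians of -0.14 and 0.25 on the log2 scale. Snx24 and Snx30 fell by 0.76 and 1.27 with RANKL and were 1.62 and 0.90 higher with rmCst6 than with RANKL (limma, adjusted p = 1.02e-10 and 1.82e-08 for the latter). Snx2, a retromer-associated protein, was 1.12 higher with rmCst6 (adjusted p = 1.08e-09, limma), Snx13 was 0.71 higher, and Snx9 fell by 0.82.

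Of 31 genes for lysosome positioning and ruffled border traffic, 12 rose and 12 fell with RANKL, and 12 were higher and 14 lower with rmCst6 than with RANKL, beside medians of 0.04 and -0.11 on the log2 scale. The shares over all genes tested were 36.6% and 35.9% with RANKL and 34.8% and 38.0% with rmCst6, so these counts are not particular to the list. Arl8b, the small GTPase that moves lysosomes outward on microtubules, rose by 1.29 with RANKL and fell by 1.03 with rmCst6 (limma, adjusted p = 5.3e-10 and 3.14e-09). Among relatives and partners of Plekhm1, Plekhm3 fell by 0.65 with RANKL and was 1.19 higher with rmCst6 (adjusted p = 1.21e-10, limma), Def8, which binds Plekhm1, rose by 0.27 and was a further 1.06 higher, and Rubcn fell by 0.84 and was 0.44 higher. Lamp2, a lysosomal membrane protein, fell by 0.96 and was 1.79 higher with rmCst6 (adjusted p = 1.19e-10, limma).

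Of 18 other osteopetrosis and osteoclast disease genes tested, 11 rose and 6 fell with RANKL, and 5 were higher and 10 lower with rmCst6, with medians of 0.52 and -0.44. Some of them, Ctsk, Atp6v0d2 and Nfatc1 included, are also osteoclast markers counted above, so these counts are not a separate observation. Ctsk, the collagen-cleaving protease cathepsin K, rose by 10.49 with RANKL and fell by 8.11 with rmCst6, and Atp6v0d2, a subunit of the proton pump, rose by 5.17 and fell by 7.90 (limma, adjusted p of 7.03e-14 or less). Src, the kinase of the sealing zone, and Nfatc1, the leading osteoclast transcription factor, rose by 6.82 and 2.40 with RANKL. With rmCst6 added, Src fell by 3.58 and Nfatc1 fell by 3.11. Among 29 other ion channels, pumps and exchangers, 12 rose and 13 fell with RANKL, and 12 were higher and 9 lower with rmCst6. P2rx4 and Itpr1, channels for extracellular ATP and for calcium release, were 2.06 and 2.02 higher with rmCst6, Slc8a1 and Clic1 were each 0.84 higher, and Tpcn1 fell by 1.05. Clic4 followed a course like that of Plekhm1 at a larger scale, with a rise of 1.65 with RANKL (adjusted p = 4.17e-11, limma) and no call with rmCst6 (-0.02, adjusted p = 0.756).

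For each member the nearest genes across the 9 libraries were found by Euclidean distance between log2 values centred on each gene's mean, as a description in which all points share the same 3 groups. Nearest to Car2 were Cyp2s1, Mt3 and Siglec15 (distances 1.02, 1.09 and 1.66), of which Mt3 and Siglec15 were listed at 0 in all control libraries, and Slc9b2 was its neighbour at rank 5. Ocstamp, a membrane protein of osteoclast fusion, was nearest to Slc9b2 (0.536), followed by Ckmt1 and Serpind1 (0.891 and 0.910), both listed at 0 outside the RANKL libraries. Strbp, Ckb and Grk3 were nearest to Slc4a2 (0.269 to 0.309). Snx10 had Atp5g1, a subunit of the mitochondrial ATP synthase, and then Atp6v1b2 and Atp6v1d, both of the V1 sector of the proton pump, as neighbours (0.149 to 0.239). Clcn7 was nearest to Galnt6, Serpinb8 and Mrps18b (0.184 to 0.220), Ostm1 to Psmd6, Bzw1 and Alg2 (0.123 to 0.132) and Plekhm1 to Ints1, Cog4 and Map7d1 (0.162 to 0.167). Pearson r over the 9 libraries was 0.952 to 1.0 for these 21 neighbours. No member was among the 3 nearest genes of another, and the neighbour lists of the 7 genes had no gene in common.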

How the data were processed

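The deposited table holds, for 13526 genes and 9 libraries, log2 values that the authors had normalized. The submitters' processing notes name Salmon 1.2.1, DESeq2 and GRCm38.p6 with no role or order. The labels name a stranded poly(A) library kit. The normalization method and the filter behind the deposited log2 values are not given in the sources used here. Values had already been scaled between libraries, so their linear sums of 27660400 to 31353600 are not read totals and the depth is unknown. Only 38.0% to 54.5% of low values lay within 0.02 of a multiple of a fitted single-read step, so reads were not recovered and no count test was run. Precision is therefore given by the spread of 3 replicates.

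Genes with a value of at least 10 in at least 3 of 9 libraries were tested (12932 kept, 594 left out). limma 3.58.1 (R 4.3.3, statmod 1.5.0) was fitted to group means over all 9 libraries with the mean-variance trend, two-sided, with Benjamini-Hochberg adjustment over all genes tested and calls under 0.05. The fit was tested on simulated data for rmCst6 against RANKL. It called 55.2%, 78.8%, 92% and 99.2% of genes changed by 0.5, 1, 2 and 4 on the log2 scale. Of unchanged genes 0.0707% were called, so small changes can be missed. The simulated runs held 250 changed values of each size beside 63660 unchanged ones, whereas 72.7% of genes were called in the data. The simulated rates therefore do not give the rates of the calls reported here. The 7 genes, the gene lists and the tests were chosen with earlier results of these data known. From each list, all genes were named where 4 or fewer were tested, and otherwise up to 4 with the smallest adjusted p for rmCst6 against RANKL and up to 2 for RANKL against control, and Slc9b1 was added after its values were seen. Results on some genes of the lists are withheld for evaluation and not reported here. The 3 nearest genes of each member left out unnamed gene models. Named markers of other cells were the most abundant or defining ones of their list.

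Levels per kilobase are the linear value (2 to the log2 value, less 1) over the union exon length in GENCODE on GRCm38, where 13516 identifiers matched. Promoter sequences came from a RefSeq table on GRCm38.p6, with none matched for Car2. Between 0% and 2.57% of the 31-base words of a member's exons also occurred in another gene. Markers of megakaryocytes, B cells, T and NK cells, mast cells, dendritic cells, stromal cells and endothelium were counted as well: 4, 2, 1, 2, 1, 6 and 3 of 6, 2, 1, 2, 7, 10 and 4 tested were higher with rmCst6 than with RANKL, and 1, 0, 0, 0, 4, 0 and 0 lower. The shares over all genes tested there were 34.8% higher and 38.0% lower. The alternatives were no filter, a filter at 100, a further 8 added before the logarithm, quantile normalization, median centring, no trend, robust variances, array weights, a fit to the compared groups alone, a block for the replicate number, a 2-fold threshold and leaving out each library in turn.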

Additional observations from a re-analysis of the deposited data

How the results depend on the processing

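Under the 19 alternatives that kept the threshold, every call on the 7 genes in the 3 comparisons was the same except as follows, and the causes were not tested. Ostm1 in RANKL plus rmCst6 against control, not called anywhere, turned from 0.00558 to -0.0165 under quantile normalization and -0.0662 under median centring, and ranged from -0.0082 to 0.0233 when single libraries were left out. Plekhm1 in rmCst6 against RANKL ranged from 0.0163 to 0.161 without single libraries and was called without RANKL replicate 1, so that the number of members higher was 0 to 1. Over these 19 alternatives, 395 member values kept their direction and call, 3 turned in sign and 1 gained a call. Median centring moved the median of all genes for RANKL against control from -0.01 to -0.12, and the genes called higher and lower there from 4729 and 4644 to 4125 and 5433. A 2-fold threshold left 3403 genes called for RANKL against control (1737 higher, 1666 lower) where 9373 had been, 3591 for rmCst6 against RANKL (1653 and 1938) where 9407 had been, and 3317 for rmCst6 against control (1613 and 1704) where 9278 had been. With that threshold 5, 4 and 2 members remained called in the 3 comparisons, and 2, 2 and 4 called members lay under 2-fold. Deviations of libraries with the same replicate number had r from -0.0776 to 0.0706 across genes, and those with different numbers -0.082 to 0.0831. In pairs with a RANKL library r was 0.0153 to 0.0706 for the same number and -0.082 to 0.0338 for different numbers. Same-number pairs of control with rmCst6 had r from -0.0776 to 0.0103. A weak shared deviation was not tested. The replicate block changed no member's call and left 9354, 9358 and 9267 genes called in the 3 comparisons. With 3 libraries a group and unknown depth, the 95% intervals of the member differences that were not called bound them at -0.05 to 0.23 for Plekhm1 and -0.08 to 0.09 for Ostm1 on the log2 scale.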
